A study of Homo sapiens with 10 samples.

Results

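Genes induced by hypoxia-inducible factor (HIF) other than the enzymes and transporters of glycolysis were followed across 10 culture conditions of 3 human cell lines. The set lists 35 genes, of which 33 had a probe set annotated to that symbol alone, out of 19775 genes with such a probe set. Each gene was read from its probe set with the highest mean over the 10 arrays. Of the 33, 31 exceeded 6.18 log2, the median of all values, on at least 1 colon cancer array and were tested among 13243 genes. RORA, a nuclear receptor, and PPP1R3C, which directs a phosphatase to glycogen, stayed below that level on all 8 colon cancer arrays, and the remaining 2 listed genes are not analysed here. No tested member had passed the filter only through cocultured cells.

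HIF is a transcription factor made of an oxygen-labile alpha subunit and the stable partner ARNT. In oxygen, prolyl hydroxylases mark the alpha subunit for destruction through VHL. When oxygen is short the subunit persists, and the factor binds a short core sequence near genes for blood supply, acid handling, mitochondrial clearance, glycogen and lipid storage, and brakes on growth. In colon carcinoma cells such genes are familiar markers of hypoxia, and several are also reached by other stress pathways.

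The tested cultures were Hke3 and HCT116 cells grown with THP1 macrophages, with and without vitamin D3, and each had a monoculture of the same line, with and without vitamin D3, beside it. HCT116 is a colorectal carcinoma line, Hke3 is a clone derived from it by gene targeting, and THP1, a monocytic leukaemia line, was profiled on its own, with and without vitamin D3. Cells in coculture shared medium without touching. Vitamin D3 was given for 24 hours, cancer cells were kept in MEM and THP1 cells in RPMI, both with serum, and neither the medium and oxygen of the cocultures nor a step that turned THP1 cells into macrophages is given in the sources used here. With a single array for every condition, repeats of a contrast (such as coculture against monoculture, with and without vitamin D3) take the place of replicates. No label says that the cultures were separate, so standard errors and p-values cover only the spread among those repeats. Fits for coculture over both lines, for cell line and for vitamin D3, alone or by coculture, hold no line by coculture term. A coculture response that differs between lines therefore widens the standard errors of those fits.

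Markers separated THP1 from the colon cancer arrays as labelled. Among the colon cancer arrays they do not check the labels of line, coculture or vitamin D3. The median of 8 epithelial markers lay between 11.87 and 12.37 log2 on the 8 colon cancer arrays and at 5.32 and 5.43 log2 in THP1 with and without vitamin D3. Of 13 macrophage markers measured, 8 to 10 lay under the median of all values on each colon cancer array and none did in THP1. The 3' minus 5' difference of the ACTB control probe sets, which grows as RNA degrades, ranged from 0.56 to 0.94 log2 in Hke3 and from 0.16 to 0.30 in HCT116. The source name of the Hke3 monoculture with vitamin D3 describes untreated cells, against its title, description and culture field, which were followed.

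The HIF core can be read directly in promoters of the members. Promoter windows from RefSeq (GRCh38.p14), running from 250 bases before to 50 bases after each annotated start, were at hand for 23 of the 33 genes. The windows were searched on both strands for ACGTG and for GCGTG. The E-box CACGTG holds ACGTG on both strands and so counts as 2 matches. At least 1 match stood in 20 of the 23 genes (87%), against 68.5% of the 10645 tested genes with a window. ACGTG, with or without GCGTG, stood in 17 (73.9%), against 31.5% of those genes. GCGTG, with or without ACGTG, stood in 15 (65.2%), against 56.7%. The 23 include RORA and PPP1R3C, which were not among the tested genes. These shares describe the windows and carry no test, and the members are known HIF targets, for which such a core was often the reason they were described. The 5 windows below show the range among members whose values are given next, with capitals marking either motif on either strand. ANKRD37 (chr4:185396591-185396890, + strand), BNIP3 (chr10:131981874-131982173, - strand) and FAM162A (chr3:122383932-122384231, + strand) had a larger coculture difference in Hke3, DDIT4 (chr10:72273674-72273973, + strand) rose in both lines, and TMEM45A (chr3:100492369-100492668, + strand) rose in Hke3 with neither motif in its window.
ANKRD37: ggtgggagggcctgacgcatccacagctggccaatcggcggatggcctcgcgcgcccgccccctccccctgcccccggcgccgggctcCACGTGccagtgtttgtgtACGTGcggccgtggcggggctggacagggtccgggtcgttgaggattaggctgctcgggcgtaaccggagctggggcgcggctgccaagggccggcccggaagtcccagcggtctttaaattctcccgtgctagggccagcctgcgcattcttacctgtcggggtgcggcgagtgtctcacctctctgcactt
BNIP3: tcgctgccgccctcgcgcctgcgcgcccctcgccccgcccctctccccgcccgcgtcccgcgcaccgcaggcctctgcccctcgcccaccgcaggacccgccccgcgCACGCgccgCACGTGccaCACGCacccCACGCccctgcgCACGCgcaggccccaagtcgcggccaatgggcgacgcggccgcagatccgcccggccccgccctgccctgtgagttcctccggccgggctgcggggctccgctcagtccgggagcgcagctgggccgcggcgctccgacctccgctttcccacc
FAM162A: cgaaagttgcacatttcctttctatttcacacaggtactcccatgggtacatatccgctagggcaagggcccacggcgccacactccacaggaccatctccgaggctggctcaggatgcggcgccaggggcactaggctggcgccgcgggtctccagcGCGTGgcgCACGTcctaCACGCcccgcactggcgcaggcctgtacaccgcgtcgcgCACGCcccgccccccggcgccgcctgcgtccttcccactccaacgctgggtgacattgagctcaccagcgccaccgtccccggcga
DDIT4: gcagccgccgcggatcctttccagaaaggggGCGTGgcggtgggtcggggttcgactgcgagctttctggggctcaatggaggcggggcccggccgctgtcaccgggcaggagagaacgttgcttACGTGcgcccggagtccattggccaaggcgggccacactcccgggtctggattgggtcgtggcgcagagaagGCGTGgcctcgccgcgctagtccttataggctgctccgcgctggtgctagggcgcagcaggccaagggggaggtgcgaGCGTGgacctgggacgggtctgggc
TMEM45A: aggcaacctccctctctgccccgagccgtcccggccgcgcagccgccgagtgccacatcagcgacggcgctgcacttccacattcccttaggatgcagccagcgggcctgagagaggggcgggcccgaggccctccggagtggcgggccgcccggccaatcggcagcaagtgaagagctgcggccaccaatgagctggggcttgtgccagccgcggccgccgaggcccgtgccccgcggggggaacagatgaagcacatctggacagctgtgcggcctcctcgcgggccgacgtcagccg
In the ANKRD37 window the E-box begins 162 bases before the annotated start, and a further ACGTG begins 143 bases before it. BNIP3 held 6 matches, all between 143 and 104 bases before the start, and FAM162A held 4, between 92 and 36 bases before it. Of 14 members with a window whose coculture difference was larger in Hke3 by the test below, 12 held a match, as did 7 of 7 members with a window for which that test did not pass. MXI1, KDM3A, NARF and AK4 had several windows, and any of them counted.

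The members were chosen with earlier results of these data known, so shares of members called describe the list and do not test it. In Hke3 the module moved almost as a whole: 27 of 31 tested members rose with coculture and none fell. The same test called 4.09% of all 13243 genes higher and 3.06% lower. The median member difference was 0.80 log2, against -0.01 for all genes tested. In HCT116, 7 of 31 members rose (22.6%) and 1 fell, against 7.66% and 8.31% of all genes, and the median member difference was 0.17 log2, against -0.02 for all genes. The difference between the lines was itself tested as an interaction in limma. It passed for 19 members, each with the larger value in Hke3. Of all genes, 1.87% passed in that direction and 2.34% in the other (4.21% in all). PPFIA4, among the 19, was under the filter level on all HCT116 arrays and passed the filter through Hke3 alone. Its call between the lines, here and below, carries no weight. Averaged over both lines, 10 members rose and none fell, against 3.76% and 4.05% of all genes (7.82% in either direction); at an unadjusted p under 0.05 the count was 24 higher and 0 lower (77.4% of members), against 26.2% of all genes in either direction.

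**Figure D1:**
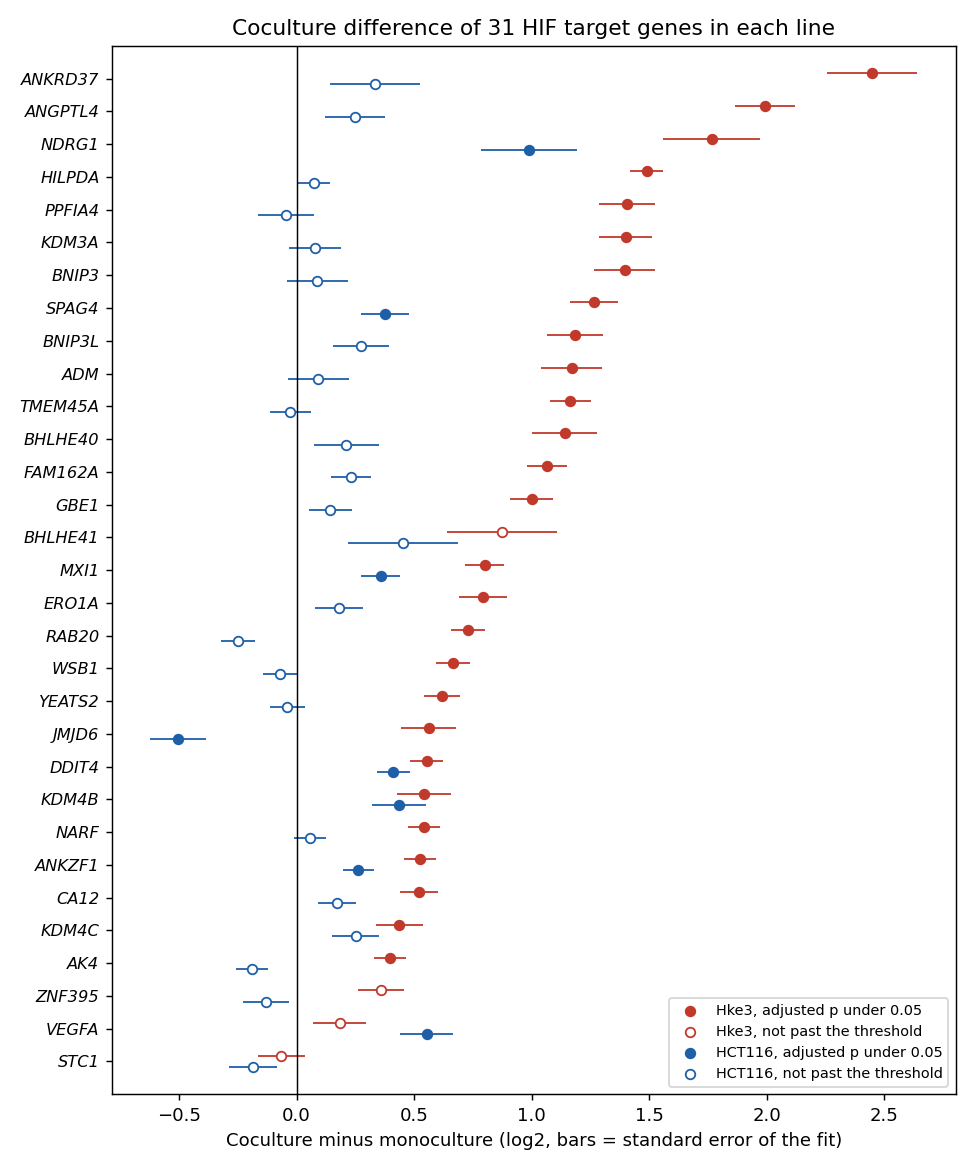
Coculture minus monoculture difference (log2) of the 31 tested members in Hke3 (red) and HCT116 (blue), with the standard error of the fit as bars and filled points for an adjusted p under 0.05. Hke3 differences run from -0.06 for STC1 to 2.45 for ANKRD37, and most HCT116 values lie near 0, with NDRG1 at 0.99 and JMJD6 at -0.50.

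A fit with no vitamin D3 term, which does not use the vitamin D3 labels, called 29 members in Hke3, 9 in HCT116, 19 for the difference between lines and 17 over both lines, against 8.8%, 17.4%, 5.5% and 11% of all genes. The counts depend on single arrays to different degrees. Leaving out any array also lowered the share of all genes called in each of these contrasts. Lost calls are therefore not particular to the members. Of the 27 Hke3 calls, 15 remained whichever of the 8 arrays was left out: those of ADM, ANGPTL4, BNIP3, BNIP3L, FAM162A, MXI1, KDM3A, GBE1, HILPDA, ANKRD37, WSB1, PPFIA4, SPAG4, RAB20 and TMEM45A. The other 12 were lost without the Hke3 array with vitamin D3, which left 15 calls. Of the 19 calls for the difference between lines, those of ANGPTL4, HILPDA, PPFIA4, RAB20 and TMEM45A remained under every such omission. Among HCT116 arrays (treated means with vitamin D3), omitting the untreated monoculture left 5, omitting the untreated coculture left 7, and omitting the treated monoculture left 10. Among Hke3 arrays, omitting the treated monoculture left 7, omitting the treated coculture left 9, and omitting the untreated monoculture left 12. None of the 8 HCT116 calls remained under every omission: omitting either HCT116 monoculture, or the treated HCT116 coculture, left 0, and omitting the untreated HCT116 coculture left 2. Over both lines, 10 members were called with all arrays. The count was 1 without the treated HCT116 monoculture, 2 without the treated HCT116 coculture and 4 without the treated Hke3 coculture. It was 3 without each of the other Hke3 arrays, 9 without the untreated HCT116 monoculture and 12 without the untreated HCT116 coculture. The last count, and that without the untreated Hke3 monoculture, include members not among the 10.

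Of 4 secreted factors, 2 rose in Hke3, ANGPTL4 and ADM, and 1 in HCT116, VEGFA. ANGPTL4, an inhibitor of lipoprotein lipase, read 9.84 and 9.66 log2 in Hke3 cocultures with and without vitamin D3, against 7.75 and 7.76 log2 in the matching monocultures. The groups lie far apart, and the fitted rise was 3.98-fold (log2 difference 1.99 ± 0.13 SE, limma adjusted p = 0.000745). In HCT116 it read 8.37 and 7.89 log2 in cocultures, against 7.83 and 7.93 log2 in monocultures, which overlap (0.25 ± 0.13, adjusted p = 0.231). ADM encodes adrenomedullin, a vasodilator peptide, and read 13.13 and 12.80 log2 in Hke3 cocultures, against 11.73 and 11.86 log2 in monocultures. Its rise was 2.25-fold in Hke3 (adjusted p = 0.00376) and its difference was 0.09 log2 in HCT116, where the monocultures already stood at 12.66 and 12.73 log2. VEGFA, the angiogenic growth factor, read 11.98 and 11.71 log2 in HCT116 cocultures, against 11.29 and 11.29 log2 in HCT116 monocultures, a rise of 1.47-fold (adjusted p = 0.0192). In Hke3 it read 11.48 and 11.24 log2 in cocultures, against 11.08 and 11.26 log2 in monocultures (log2 0.18 ± 0.11, adjusted p = 0.361). The difference between the lines missed the threshold for VEGFA (-0.37 ± 0.16, adjusted p = 0.229), and its other 3 probe sets differed by 0.32, 0.38 and 0.42 log2 in Hke3 and by 0.41, 0.57 and 0.64 log2 in HCT116. With each probe set tested on its own, the one at 0.42 passed in Hke3 (adjusted p = 0.0429) and all 3 passed in HCT116. STC1, a secreted glycoprotein, stayed between 5.86 and 6.24 log2 on all 8 arrays, near the filter level, and passed in neither line.

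**Figure D2:**
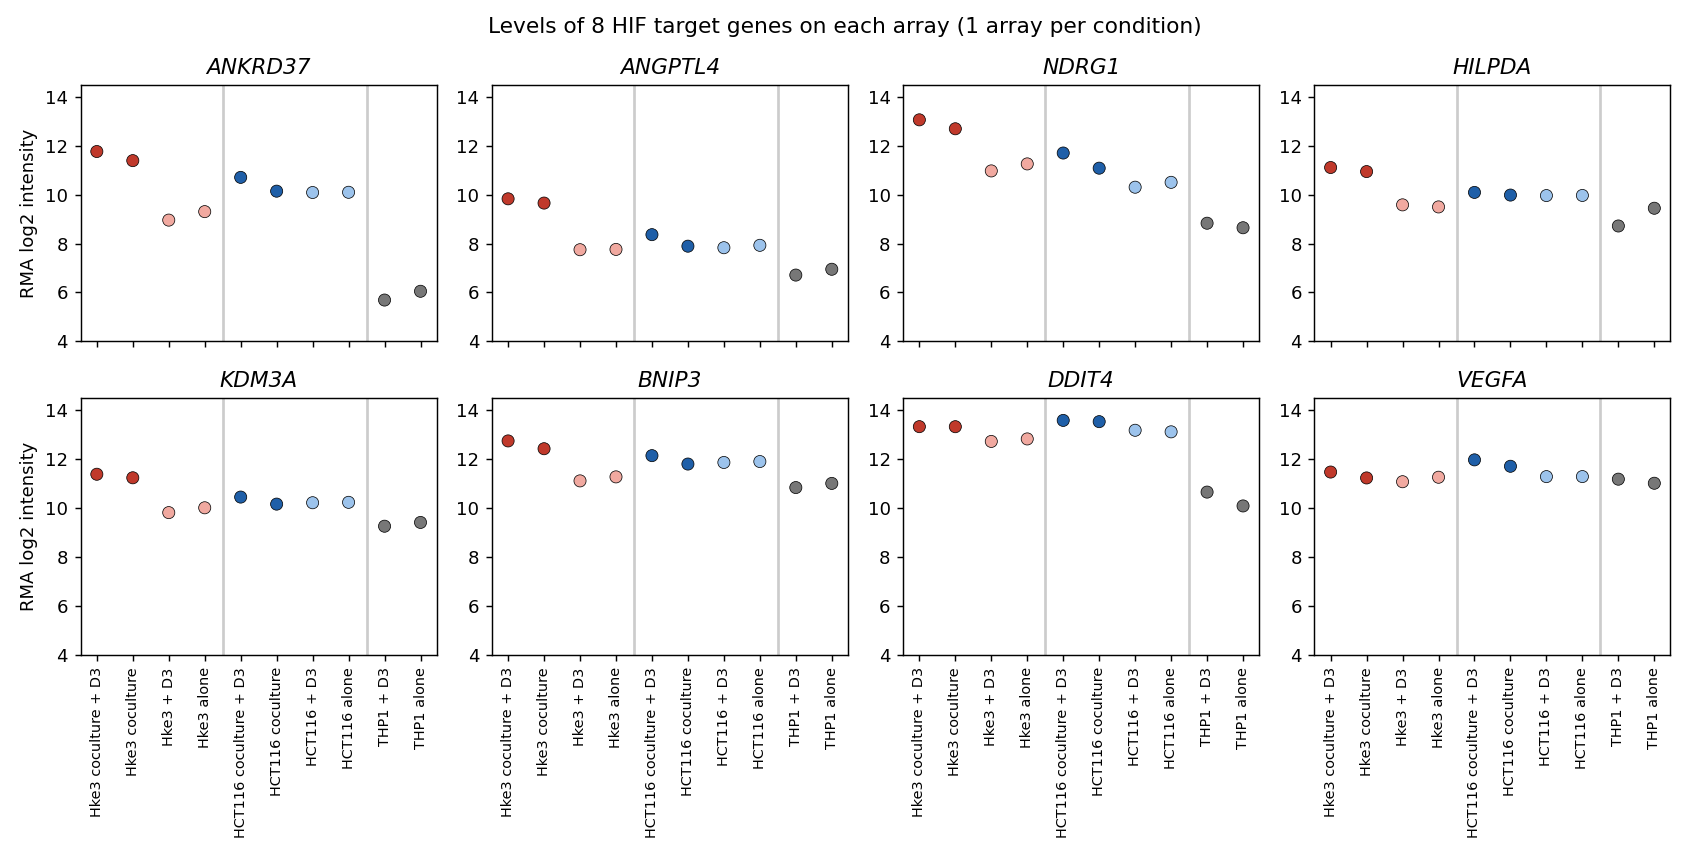
RMA log2 intensity of 8 members on each of the 10 arrays, 1 array per condition, with Hke3 in red, HCT116 in blue and THP1 in grey, and cocultures in the darker shade. ANKRD37, ANGPTL4, HILPDA, KDM3A and BNIP3 separate the Hke3 cocultures from the other arrays, DDIT4 is higher in the cocultures of both lines, and VEGFA is highest in the HCT116 cocultures.

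Mitochondrial members rose in Hke3 in 4 of 4 cases, and for all 4 the difference between lines passed. BNIP3 and BNIP3L, related receptors of the outer membrane that tag mitochondria for autophagy, had rises of 2.63-fold and 2.27-fold in Hke3. BNIP3 read 12.75 and 12.43 log2 in Hke3 cocultures with and without vitamin D3, against 11.12 and 11.28 log2 in monocultures, and 12.15 and 11.80 log2 in HCT116 cocultures, against 11.87 and 11.91 log2 in monocultures. The Hke3 cocultures are the highest of the 8 arrays, and the HCT116 groups overlap. BNIP3L read 12.45 and 12.15 log2 in Hke3 cocultures, against 11.09 and 11.13 log2 in monocultures. FAM162A, a mitochondrial protein tied to cell death in hypoxia, was the brightest of the group and differed by 1.07 ± 0.09 log2 in Hke3 (adjusted p = 0.00134) and 0.23 ± 0.09 in HCT116 (adjusted p = 0.111). AK4, a mitochondrial adenylate kinase, showed the smallest called Hke3 rise of the module, 1.32-fold. It read 10.41 and 10.39 log2 in HCT116 cocultures, against 10.56 and 10.61 log2 in monocultures (-0.19 ± 0.07, limma adjusted p = 0.108). With each probe set tested on its own in limma, the other AK4 probe sets missed the interaction. The next brightest differed by 0.60 log2 in Hke3 and -0.03 log2 in HCT116 (interaction 0.63 log2, adjusted p = 0.0959). The dimmer ones differed by 0.46 and 0.56 log2 in Hke3 and by 0.03 and 0.04 log2 in HCT116. For BNIP3L and AK4 the call between lines was lost under each omission of an array.

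All 5 chromatin members rose in Hke3, while in HCT116 1 rose and 1 fell. KDM3A, a demethylase of histone H3 that itself needs oxygen, read 11.39 and 11.24 log2 in Hke3 cocultures with and without vitamin D3, against 9.82 and 10.01 log2 in monocultures, a rise of 2.64-fold (adjusted p = 0.00134). Its HCT116 values were 10.45 and 10.16 log2 in cocultures and 10.22 and 10.24 log2 in monocultures, which overlap. JMJD6, a dioxygenase that hydroxylates lysines, was the single member with opposite calls. It rose 1.48-fold in Hke3, to 10.90 and 10.57 log2 in cocultures, against 10.16 and 10.19 log2 in monocultures. It fell in HCT116, to 9.81 and 9.52 log2 in cocultures, against 10.10 and 10.23 log2 in monocultures (-0.50 ± 0.12, adjusted p = 0.029). The difference between the lines was 1.07 ± 0.17 (adjusted p = 0.0182), and omitting any of 6 of the 8 arrays raised its adjusted p above the threshold. KDM4B, a related demethylase, rose in both lines, 1.46-fold in Hke3 and 1.35-fold in HCT116, with an interaction of 0.11 ± 0.16. Its probe sets differ when each is tested on its own in limma. The next brightest rose by 0.88 log2 in Hke3 and 0.35 log2 in HCT116, and its interaction passed (0.54, adjusted p = 0.0476). The dimmer KDM4B probe sets that were tested passed in neither line, and the one used missed the threshold in HCT116 (adjusted p = 0.0557). KDM4C rose 1.35-fold in Hke3 (limma adjusted p = 0.044), and its interaction was not called. A dimmer KDM4C probe set, with a mean of 5.94 log2, passed that interaction on its own (0.67 log2, adjusted p = 0.0414). YEATS2, a histone reader of an acetyltransferase complex, rose 1.54-fold in Hke3 and differed by -0.04 log2 in HCT116.

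Both brakes on growth rose in both lines, as did KDM4B, MXI1, SPAG4 and ANKZF1. NDRG1, a stress-induced gene that restrains growth and spread in colon cells, read 13.07 and 12.70 log2 in Hke3 cocultures with and without vitamin D3, against 10.98 and 11.27 log2 in monocultures. In HCT116 it read 11.71 and 11.09 log2 in cocultures, against 10.31 and 10.51 log2 in monocultures. Neither pair of groups overlaps, and the rises were 3.4-fold (adjusted p = 0.00453) and 1.99-fold (adjusted p = 0.0202), with an interaction of 0.78 ± 0.29 that did not pass (adjusted p = 0.174). DDIT4, an inhibitor of the growth kinase complex mTORC1, was higher by 0.55 ± 0.07 log2 in Hke3 and by 0.41 ± 0.07 in HCT116 (adjusted p = 0.00636 and 0.0118). It was the member whose call over both lines remained under every omission of an array; NDRG1 lost that call only without the HCT116 array with vitamin D3.

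Among transcription factors, MXI1, an antagonist of MYC, rose 1.74-fold in Hke3 and 1.28-fold in HCT116 (adjusted p = 0.00313 and 0.0285). BHLHE40, a repressor that also acts in the circadian clock, read 12.16 and 11.95 log2 in Hke3 cocultures with and without vitamin D3, against 10.85 and 10.97 log2 in monocultures, a rise of 2.21-fold (adjusted p = 0.00525). Its HCT116 cocultures, at 11.35 and 10.89 log2, overlapped the monocultures at 10.85 and 10.96 log2. Its relative BHLHE41 read 8.05 and 7.43 log2 in Hke3 cocultures, against 6.59 and 7.14 log2 in monocultures, and missed the threshold (0.87 ± 0.23, adjusted p = 0.0658). The zinc finger gene ZNF395 differed by 0.36 ± 0.10 in Hke3 (adjusted p = 0.0677) and by -0.13 ± 0.10 in HCT116.

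Storage genes moved in Hke3. HILPDA, which protects lipid droplets from lipase, read 11.12 and 10.95 log2 in Hke3 cocultures with and without vitamin D3, against 9.59 and 9.50 log2 in monocultures. In HCT116 the levels were 10.10 and 9.99 log2 in cocultures, against 9.97 and 9.97 log2 in monocultures. The Hke3 rise was 2.81-fold with the smallest adjusted p of the module (0.00047), the HCT116 difference was 0.07 ± 0.07 log2, and the interaction was 1.42 ± 0.10 (adjusted p = 0.0022). GBE1, the glycogen branching enzyme, read 11.56 and 11.41 log2 in Hke3 cocultures, against 10.48 and 10.49 log2 in monocultures (adjusted p = 0.00209), and its HCT116 difference was 0.14 ± 0.09 log2. ERO1A, the oxidase that supports disulfide bonds in the endoplasmic reticulum, rose 1.73-fold in Hke3 (limma adjusted p = 0.0071). Its interaction missed the threshold (0.61 ± 0.15, adjusted p = 0.0627). With each probe set tested on its own, the next brightest ERO1A probe set passed that interaction (0.88 log2, adjusted p = 0.0191). The dimmest missed it (0.75 log2, adjusted p = 0.0508). CA12, a carbonic anhydrase of the cell surface, rose 1.43-fold in Hke3 (limma adjusted p = 0.0147) and differed by 0.17 ± 0.08 log2 in HCT116. With each probe set tested on its own in limma, the next brightest CA12 probe set rose in both lines. Its differences were 0.39 log2 in Hke3 (adjusted p = 0.0232) and 0.30 log2 in HCT116 (adjusted p = 0.0431). The dimmer CA12 probe sets passed in neither line.

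The remaining 8 members all rose in Hke3, and 7 had the larger value there by the interaction. ANKRD37, an ankyrin repeat protein, had the largest difference of the module. It read 11.77 and 11.40 log2 in Hke3 cocultures with and without vitamin D3, against 8.96 and 9.31 log2 in monocultures, a rise of 5.46-fold (2.45 ± 0.19, adjusted p = 0.00134). In HCT116 it read 10.71 and 10.15 log2 in cocultures, against 10.09 and 10.10 log2 in monocultures (0.33 ± 0.19, adjusted p = 0.282). SPAG4, a protein of the nuclear envelope, rose 2.41-fold in Hke3 and 1.3-fold in HCT116. PPFIA4, a liprin, read 7.90 and 7.71 log2 in Hke3 cocultures, against 6.24 and 6.57 log2 in monocultures. It stayed between 5.58 and 5.71 log2 in HCT116, under the filter level, so its interaction call carries no weight. TMEM45A, a transmembrane protein, rose 2.24-fold in Hke3 and differed by -0.03 ± 0.09 log2 in HCT116. RAB20, a small GTPase, read 10.12 and 10.09 log2 in Hke3 cocultures, against 9.36 and 9.39 log2 in monocultures, while its HCT116 cocultures at 9.27 and 9.16 log2 lay below the monocultures at 9.41 and 9.51 log2 (-0.25 ± 0.07, adjusted p = 0.0572). WSB1, a ubiquitin ligase adaptor, and NARF, which binds prelamin A, rose 1.59-fold and 1.46-fold in Hke3, and their other probe sets differ in part. With each probe set tested on its own, a second, dimmer NARF probe set fell by 0.29 log2 in Hke3 (adjusted p = 0.0495) and by 0.40 in HCT116 (adjusted p = 0.0174). It was the only one of 37 further probe sets of the members with the opposite sign in Hke3. Of 4 WSB1 probe sets above the filter level, all rose in Hke3, 1 also rose in HCT116 (0.50 log2, adjusted p = 0.0149), and the interaction passed for the 2 brightest and not for the other two (0.41 and 0.18 log2). ANKZF1, which acts on stalled ribosomes, rose 1.44-fold in Hke3 and 1.2-fold in HCT116.

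**Figure D3:**
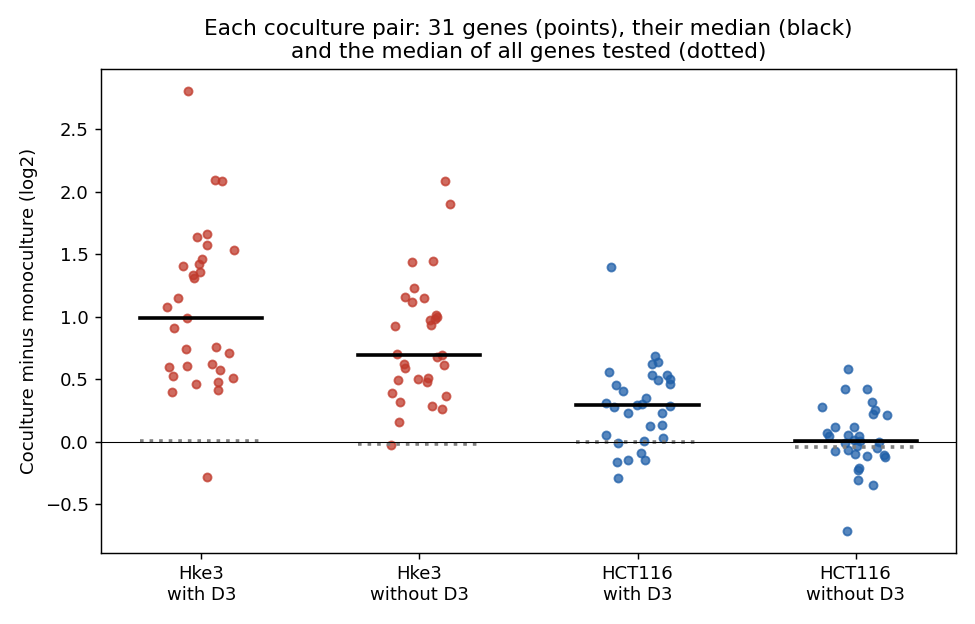
Coculture minus monoculture difference (log2) in each of the 4 pairs of arrays, with a point per tested member (n = 31), the member median as a black line and the median of all 13243 genes as a dotted line. The member medians are 0.99 and 0.69 in Hke3 with and without vitamin D3, and 0.29 and 0.003 in HCT116 with and without it.

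Every pair of arrays gave its own reading of the module. In Hke3, 30 of 31 members were above 0 in the pair with vitamin D3 and 30 in the pair without it, and 15 and 9 of them exceeded 2-fold, against 0.498% and 0.31% of all genes. In HCT116, 25 members were above 0 in the pair with vitamin D3 and 16 in the pair without it, and 1 and 0 exceeded 2-fold, against 0.498% and 0.204% of all genes. NDRG1 was the member past 2-fold in HCT116. Both Hke3 cocultures lay above both Hke3 monocultures for 29 members, a pattern that 26% of all genes shared, and below them for none, against 29.8%; the HCT116 groups separated upward for 14 members, against 25.3% of all genes, and downward for 4, against 32.9%. All 4 pairs were above 0 for 14 members, against 12.9% of all genes.

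RNA quality and macrophage RNA were read on the same arrays. The ACTB value was 0.56 and 0.62 log2 in Hke3 cocultures with and without vitamin D3, against 0.72 and 0.94 log2 in Hke3 monocultures, and 0.23 and 0.16 log2 in HCT116 cocultures, against 0.25 and 0.30 log2 in HCT116 monocultures. It was lower with coculture in both lines; its part in the results was not tested. The summed linear intensity of the 13 macrophage markers was 746 and 737 in Hke3 cocultures, against 681 and 712 in Hke3 monocultures, and 701 and 723 in HCT116 cocultures, against 753 and 737 in HCT116 monocultures. In THP1 with and without vitamin D3 the same sum was 72368 and 54843. SRGN, the brightest of these markers in THP1, read 6.28 log2 in the Hke3 coculture with vitamin D3 and at most 4.90 log2 on the other colon cancer arrays. Without the Hke3 coculture array with vitamin D3, 19 of the 27 members were still called in Hke3. In bulk RNA, more cells expressing a gene and more RNA per cell cannot be told apart.

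The starting levels of the lines differed as well. In monoculture, both Hke3 arrays lay below both HCT116 arrays for 16 of 31 members (51.6%, against 32.9% of all genes) and above them for 10 (against 37.4%). In coculture, both Hke3 arrays lay above both HCT116 arrays for 28 members (90.3%, against 39% of all genes), and below them for DDIT4 and VEGFA. For 13 members Hke3 lay above HCT116 in cocultures and below it in monocultures, which 3.8% of all genes did. For ANKRD37, Hke3 minus HCT116 was 1.15 log2 in cocultures and -0.96 in monocultures. For BNIP3 the same difference was 0.62 in cocultures and -0.69 in monocultures, and for HILPDA 0.99 and -0.43. ADM was 0.17 in cocultures and -0.90 in monocultures. These counts and differences carry no test of their own, since the interaction already compares the same arrays. PPFIA4, counted among the 10 and the 28, was below the filter level on all HCT116 arrays. STC1, counted among the 28, was below that level on all HCT116 arrays. It was also below it in the Hke3 cocultures with and without vitamin D3, at 5.96 and 6.08 log2.

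**Figure D4:**
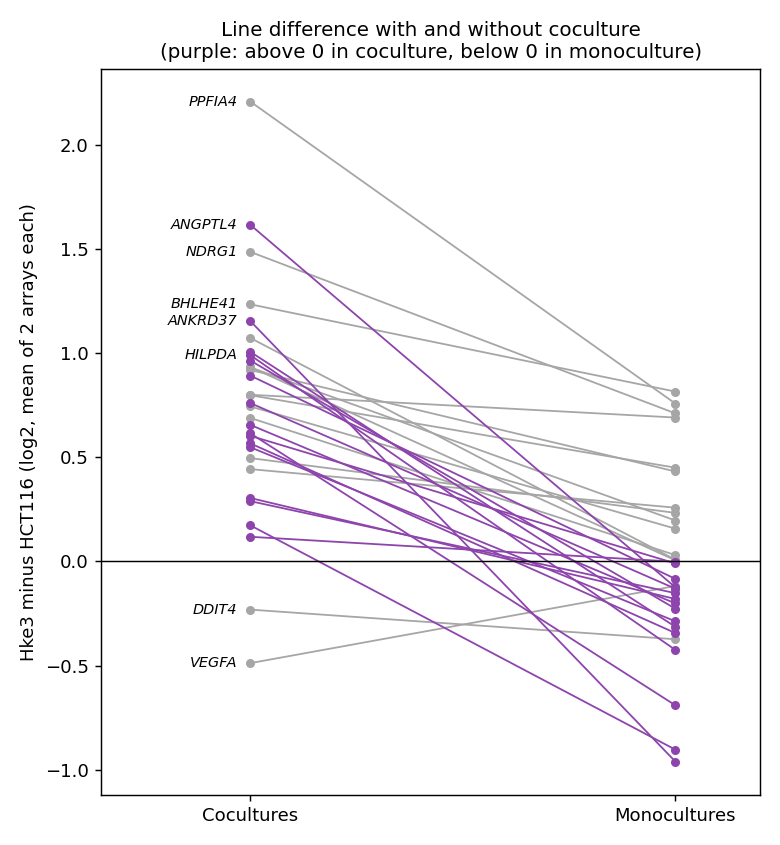
Hke3 minus HCT116 difference (log2, means of 2 arrays each) of the 31 tested members in cocultures and monocultures, joined by a line per gene, purple where the difference is above 0 in cocultures and below 0 in monocultures. The median is 0.76 in cocultures and -0.08 in monocultures.

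Over all 8 arrays, 10 members were higher in Hke3 than in HCT116 and 2 lower, in a comparison that called 24.8% of all genes higher and 15.7% lower. Among those higher in Hke3 were NDRG1 (log2 1.10 ± 0.20), BHLHE41 (1.03 ± 0.18) and KDM4B (0.75 ± 0.08); DDIT4 (-0.30 ± 0.06) and VEGFA (-0.30 ± 0.10) were lower in Hke3. The share of members called in either direction, 38.7%, lies close to the 40.5% of all genes. PPFIA4, counted among the 10, was below the filter level on all HCT116 arrays and passed the filter through Hke3 alone, so its call between the lines carries no weight.

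Vitamin D3 moved no member past the threshold in the colon cancer lines. The limma count was 0 of 31 for the treatment itself, 0 at an unadjusted p under 0.05, and 0 of 13243 genes (0%) passed in either direction; 375 genes had an unadjusted p under 0.05. Member differences ran from -0.09 log2 for CA12 to 0.15 for BNIP3L, with standard errors from 0.06 to 0.39. The coculture difference was not called different with vitamin D3 either (0 of 31 members and 0% of all genes by the adjusted p). That interaction was above 0 for 29 of 31 members, with a median of 0.23 log2, against 0.04 for all genes. Its fit leaves the line by coculture difference in the error, and its standard error reached 0.82 log2 for ANKRD37. A fit this wide cannot show that vitamin D3 makes no difference. At an unadjusted p under 0.05 in the same fit, 1 member and 652 genes passed. The member was BHLHE41, with a vitamin D3 by coculture interaction of 0.77 ± 0.25, named after its value was seen.

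THP1 cells carried lower levels of most members than the colon cancer lines. Of 31 members over 6.18 log2 on at least 1 of the 10 arrays, both THP1 arrays lay below all 8 colon cancer arrays for 23 and above them for none, against 36% and 26% of the 13879 genes that did so. ADM showed the widest gap, with 4.81 and 5.34 log2 in THP1 with and without vitamin D3 and at least 11.73 log2 in the colon cancer cells. ANKRD37 read 5.69 and 6.05 log2 in THP1, both under the filter level, and at least 8.96 log2 in the cancer lines. VEGFA, GBE1, WSB1, KDM4C, SPAG4, RAB20, TMEM45A and PPFIA4 overlapped between THP1 and the colon cancer arrays.

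**Figure D5:**
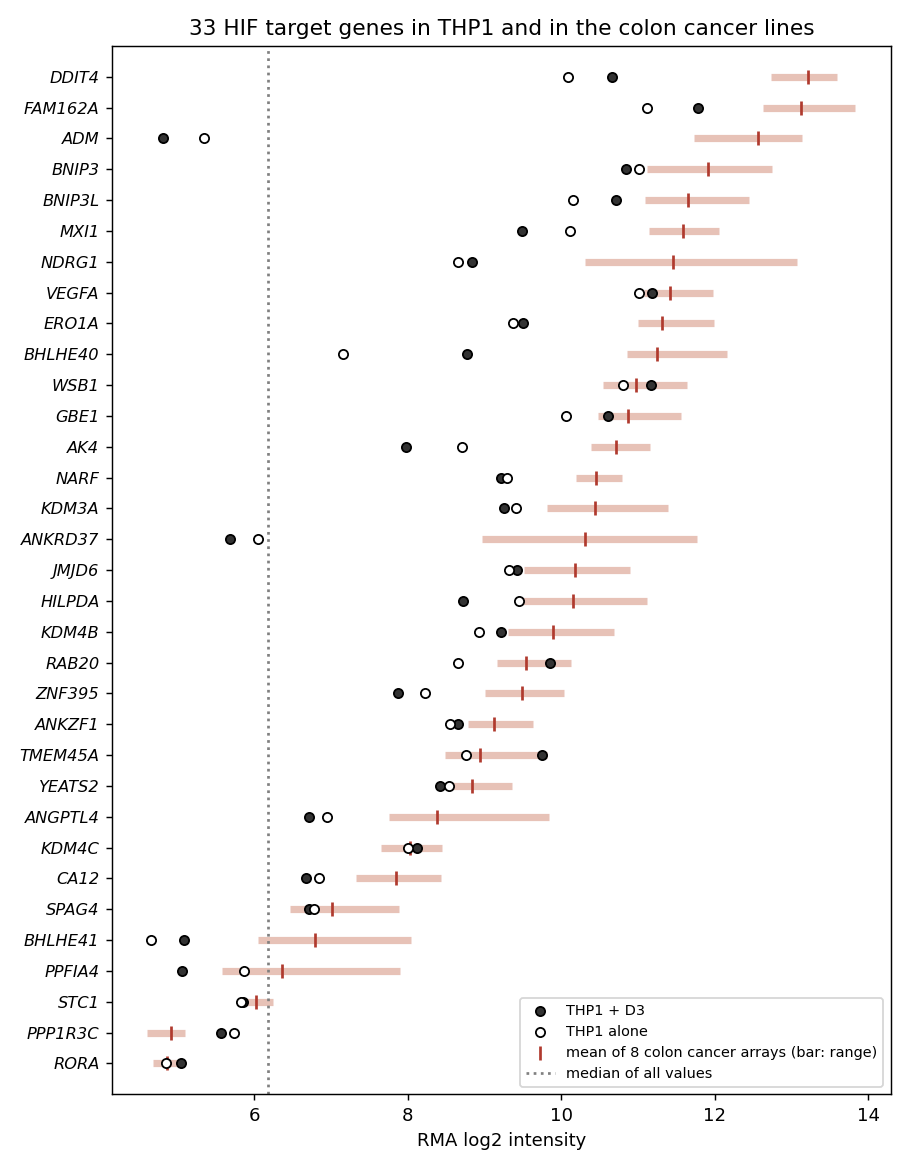
RMA log2 intensity of the 33 measured members in THP1 with vitamin D3 (filled) and without it (open), with the mean and range of the 8 colon cancer arrays in red and the median of all values (6.18) dotted. ADM and ANKRD37 lie far below the cancer cells in THP1, and VEGFA and WSB1 lie within their range or at its edge.

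With 1 THP1 array per treatment, the vitamin D3 difference there has no replicate check and no test. Of 26 members above the filter level in THP1, 4 were over 1.5-fold higher with vitamin D3 and 3 over 1.5-fold lower, against 4.36% and 2.23% of 12717 genes. BHLHE40 read 8.78 log2 with vitamin D3 and 7.15 log2 without it, RAB20 9.85 and 8.66 log2, TMEM45A 9.75 and 8.76 log2, and FAM162A 11.79 and 11.12 log2. Lower with vitamin D3 were AK4 (7.98 and 8.71 log2), HILPDA (8.72 and 9.45 log2) and MXI1 (9.49 and 10.12 log2). BHLHE40 and RAB20, the largest THP1 differences of the module, read within 0.46 log2 of each other with and without vitamin D3 in each colon cancer culture.

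Other parts of the HIF system gave a frame for the members. These lists too were chosen with earlier results of these data known. Beside each count below stand the same shares of all genes. In Hke3, 4.09% were called higher and 3.06% lower with coculture, and in HCT116 7.66% and 8.31%. Of 20 glycolysis genes tested, 16 rose in Hke3 with coculture and none fell, with a median of 0.58 log2, and 1 rose in HCT116, ALDOC, with a list median of 0.04. Of 5 collagen-modifying genes, all 5 rose in Hke3 and 2 in HCT116. P4HA2, a collagen prolyl hydroxylase subunit, was higher by 0.75 ± 0.07 log2 in Hke3 and by 0.44 ± 0.07 log2 in HCT116. LOXL2, which crosslinks collagen, was higher by 1.59 ± 0.11 log2 in Hke3 and by 0.80 ± 0.11 log2 in HCT116. Among 9 HIF subunits, hydroxylases and partners, the oxygen-sensing hydroxylases EGLN3 (1.58 ± 0.15) and EGLN1 (0.68 ± 0.07) rose in Hke3; in HCT116 EGLN1 fell (-0.35 ± 0.07) and VHL rose (0.52 ± 0.08). EGLN1 was named after its value was seen. HIF1A, the oxygen-labile subunit, differed by -0.26 ± 0.07 log2 in Hke3 (adjusted p = 0.0602) and by -0.002 ± 0.07 in HCT116. EPAS1, another oxygen-labile subunit, read 0.26 ± 0.10 log2 higher in Hke3 and 0.24 ± 0.10 log2 higher in HCT116, and passed in neither. Of 11 genes of the ATF4 stress response, a pathway that also induces DDIT4 and VEGFA, 9 rose in HCT116 and none fell, while 6 fell in Hke3 and none rose. DDIT3, a stress transcription factor of that list, had a difference of 0.09 ± 0.08 log2 in Hke3 (not called) and of 1.77 ± 0.08 log2 in HCT116. PSAT1, an enzyme of serine synthesis, had -0.52 ± 0.07 log2 in Hke3 and -0.13 ± 0.07 log2 in HCT116, the second not called. ATF3 and PPP1R15A, also of the stress response, were called in HCT116 (0.97 ± 0.14 and 0.61 ± 0.09 log2) and not in Hke3 (0.18 ± 0.14 and 0.12 ± 0.09 log2).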

How the data were processed

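Expression was measured on 10 one-colour Affymetrix arrays, 1 per condition. Values are log2 intensities as the authors deposited them, for which the submitters' processing notes name RMA and affy; versions are not given in the sources used here. RMA quantile-normalises arrays, which removes global shifts. Of 54675 probe sets, 41097 map to 1 symbol and 1801 to several, which were left out. The median filter at 6.18 log2 kept 13243 genes. Precision is limited by the number of arrays.

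The 8 colon cancer arrays were fitted in limma 3.58.1 (R 4.3.3) on additive terms for line, coculture and treatment with vitamin D3 (4 residual degrees of freedom), and with 1 interaction added for differences between or within lines (3 degrees of freedom). Tests were two-sided, with Benjamini-Hochberg adjustment over all genes tested and a threshold of 0.05; ± gives the standard error of the fit. Other filters, probe set rules, normalisations, model terms and thresholds, and the omission of each array, were tried as alternatives. Figures used matplotlib 3.10.9. The members and lists were chosen with earlier results of these data known. All measured members are named; from each other list the rule allows up to 4 genes, those with the smallest coculture p, and EGLN1 was added outside it.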

Additional observations from a re-analysis of the deposited data

Results flagged for a closer look

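For 19 members the coculture difference was larger in Hke3 than in HCT116 by a test of that difference itself, the interaction of coculture with cell line in limma. The excess in Hke3 was 2.12 log2 for ANKRD37, 1.74 for ANGPTL4, 1.45 for PPFIA4, 1.42 for HILPDA, 1.32 for KDM3A, 1.31 for BNIP3 and 1.19 for TMEM45A. It was 1.08 log2 for ADM, 1.07 for JMJD6, 0.98 for RAB20, 0.93 for BHLHE40, 0.91 for BNIP3L, 0.89 for SPAG4, 0.86 for GBE1 and 0.84 for FAM162A. The smallest were 0.74 log2 for WSB1, 0.66 for YEATS2, 0.59 for AK4 and 0.49 for NARF. PPFIA4 lies under the median level on all HCT116 arrays and passed the filter through Hke3 alone, so its size is approximate and its call carries no weight.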

How the results depend on the processing

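Each value here is a count of members called among those tested. The count for coculture over both lines, 10, was 6 when dim genes were kept, 6 with each probe set tested on its own, 17 without the vitamin D3 term, 27 with all two-way interactions, 21 at an adjusted p of 0.1 and 4 with the condition of the other 2 factors as a replicate block. The share of all genes called, 7.82%, moved with it, to 3.32%, 5.15%, 11%, 22.3%, 15.9% and 1.96% in the same order. In HCT116 the 8 calls became 4 with dim genes kept and 5 with each probe set on its own (6.38% and 10.9% of all genes, against 16%), and the 12 calls between cell lines became 24 with all two-way interactions (51.9% of all genes, against 40.5%). Leaving out each array in turn gave 1 to 12 members for coculture, 5 to 14 for the difference between lines, 15 to 27 in Hke3, 0 to 6 in HCT116, 10 to 17 between cell lines, and 0 to 0 for vitamin D3 and for its interaction with coculture. Such a fit has 1 residual degree of freedom fewer and assumes that the lone array of a condition varies like the others. Calls among all genes fell as well. Every omission gave fewer of them than the main fit for coculture, the difference between lines, each line alone and cell line. The lowest coculture count came without the HCT116 array with vitamin D3. The difference of WSB1 between lines, 0.56 log2, was -0.062 log2 with the mean of its probe sets. The causes were not tested. The other alternatives (a stricter filter, the mean of probe sets, median centring, cyclic loess, and trended, robust moderation) kept these counts within 1.5 times. The array labels carry no replicate numbers that pair cultures, so the block pairs conditions and not cultures.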
